A study of Mus musculus with 8 samples.

Results

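The wells described here lie on the 3 plates of the Tac1 reporter line on which every well carried the same treatment label. On 2 plates the organoids had received BMP4 for 4 d, and on 1 plate, by its label, for 24 h. Members were chosen by plate, and a well was kept where it held at least 2000 transcripts outside the spike-in and mitochondrial rows. This left 123 of 1152 wells, namely 30 and 45 on the 4 d plates and 48 on the plate labelled 24 h, out of 1006 kept wells in the series. Each well received 1 live reporter-positive cell from organoids, cultured mini-guts, of mouse intestine (strain C57BL/6), and its transcripts were counted with molecular identifiers by SORT-seq, a plate-based form of CEL-seq2. The genotype label is Tac1 reporter for all of them. A further 2 plates of this line, titled Tac1-Cre, carry untreated, 24 h and 4 d wells side by side and are called the mixed plates. A Cre label can stay in a cell that no longer uses the gene, so reporter-positive cells need not hold Tac1. No untreated wells lie on the 3 single-condition plates. Treatment therefore coincides with the plate, and the effect of 4 d against 24 h cannot be told apart from a difference between plates.

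BMP4, a bone morphogenetic protein, is a ligand that cells secrete. It binds paired serine/threonine kinase receptors, which activate Smad proteins that enter the nucleus with Smad4 and switch on targets such as the Id genes within hours. Id proteins block helix-loop-helix transcription factors. In the gut the pathway is more active towards the villus than in the crypt. Enterochromaffin cells, the serotonin-making enteroendocrine cells, express Tac1, the precursor of substance P, mainly in the crypt and Sct, which encodes the hormone secretin, mainly in the villus.

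The upstream sequences of Id2, Id3 and Sct are shown because these genes moved together between the plates and carry the main result. Each run holds the 250 bases before the annotated start, 5′ to 3′ on the gene's strand, from RefSeq (GRCm38.p6). The windows are chr12:25096093-25096342 on the minus strand for Id2, chr4:136143572-136143821 on the plus strand for Id3 and chr7:141279134-141279383 on the minus strand for Sct. Capitals mark GGCGCC, a GC-rich element known to bind BMP-activated Smads, which reads the same on both strands.
Id2: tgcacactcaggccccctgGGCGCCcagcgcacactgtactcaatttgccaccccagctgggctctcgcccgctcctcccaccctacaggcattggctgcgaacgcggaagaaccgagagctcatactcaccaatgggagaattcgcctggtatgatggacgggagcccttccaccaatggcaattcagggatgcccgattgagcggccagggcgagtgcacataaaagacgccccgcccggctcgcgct
Id3: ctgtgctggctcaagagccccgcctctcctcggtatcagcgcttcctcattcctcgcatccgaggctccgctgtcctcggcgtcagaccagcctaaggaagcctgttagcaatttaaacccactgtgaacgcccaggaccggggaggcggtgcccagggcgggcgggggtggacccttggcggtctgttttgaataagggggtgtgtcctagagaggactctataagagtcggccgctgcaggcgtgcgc
Sct: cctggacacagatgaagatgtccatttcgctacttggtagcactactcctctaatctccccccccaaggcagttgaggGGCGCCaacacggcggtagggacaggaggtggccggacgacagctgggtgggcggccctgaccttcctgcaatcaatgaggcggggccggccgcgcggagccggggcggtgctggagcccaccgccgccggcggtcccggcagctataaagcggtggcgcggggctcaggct
The Id2 and Sct windows hold the element at 1 place each and the Id3 window does not, while 9.59% of all 32851 such windows hold it. Of 16 genes looked for, the BMP targets and Sct, 10 had an entry and 4 held the element. The 3 windows shown are 62.8 to 68.0% G and C, and windows of like content were not compared. The palindrome GTCTAGAC, searched the same way, is in none of the 3 windows and in 0.167% of all windows. A match describes these letters and is not evidence of binding.

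The kept wells summed to 99865 and 150923 transcripts on the 4 d plates and 195449 on the plate labelled 24 h, with medians of 2919, 2802 and 3167 transcripts per well. Wells passed the minimum at 7.81% and 11.7% on the 4 d plates and at 12.5% on the plate labelled 24 h, against 42.4% on mixed plate 1 and 10.7% on mixed plate 2. Mitochondrial transcripts took a median of 7.71% and 11.6% per well at 4 d, and 8.72% on the plate labelled 24 h. The enteroendocrine identity of the wells was clear: 28 of 30 and 43 of 45 wells at 4 d, and 48 of 48 on the plate labelled 24 h, held at least 5 transcripts of 14 enteroendocrine markers when thinned to 2000 transcripts. All 14 markers were found on each plate. The 3 plates use one set of 384 well barcodes by design, and at most 8 well positions were kept on any pair of plates. Whether each plate is a culture of its own is not stated in the labels. A p-value here therefore measures plate-to-plate spread alone, and that spread may be technical. In edgeR's test on the 3 plate sums the spread is one shared across genes. Its SE and p-values therefore do not measure how well the 2 plates at 4 d agree for a given gene. Levels below are CPM, transcripts after scaling each sum to 1000000, and the intervals and floors given with them cover counting error only. Fewer cells holding a transcript and less of it per cell cannot be told apart in a sum, so shares of wells are given where depth allows.

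The Id genes were checked first, because they respond to BMP4 early and so test the treatment label. On the plate labelled 24 h they were nearly silent. Id1 stood at 300.5 and 471 CPM on the 4 d plates, against 56.3 CPM on the plate labelled 24 h. Id2 stood at 911 and 1153 CPM on the 4 d plates, against 61.4 CPM. Id3 stood at 270.4 and 669 CPM on the 4 d plates and had no transcript on the plate labelled 24 h, where a count of 0 allows up to 15.4 CPM. For each of these genes both 4 d plates lay above the plate labelled 24 h. Tbx3, a T-box repressor that BMP signalling induces, had 331 and 391 CPM at 4 d and also no transcript on the plate labelled 24 h.

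The wells labelled 24 h on the other plates were different. On mixed plate 1, Id1 stood at 17.1, 369.6 and 578 CPM in the sums of untreated, 24 h and 4 d wells, Id2 at 36.4, 576 and 956 CPM, and Id3 at 34.2, 418 and 738 CPM. The 9 kept 24 h wells of mixed plate 2 gave 202, 540 and 507 CPM for Id1, Id2 and Id3. Among Gcg and Gip reporter plates, 24 h wells held 107 to 150 CPM of Id1 and 503 to 539 CPM of Id2. Untreated wells of those plates held 1.46 to 5.75 CPM of Id1 and 35.6 to 76.0 CPM of Id2. The comparison of 24 h sums that follows sets 1 sum against 1 sum. Its SE and p-values rest on the spread of the other Tac1 sums, with the blocks of a mixed plate treated as independent. In edgeR's quasi-likelihood test over all Tac1 sums, the plate labelled 24 h lay below the 24 h wells of mixed plate 1 by 3.13 ± 0.68 on the log2 scale for Id2 (SE, adjusted p = 0.0339). Id3 and Tbx3 were also called lower (adjusted p = 0.000131 and 0.0357), although their fitted size depends on a prior count. Id1 (-2.62 ± 0.71, adjusted p = 0.121) and Sct (-2.91 ± 0.68, adjusted p = 0.0508) did not pass. Against untreated wells of the mixed plates, Id1, Id2, Id3, Tbx3 and Sct were not called, with adjusted p between 0.287 and 0.970.

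**Figure D1:**
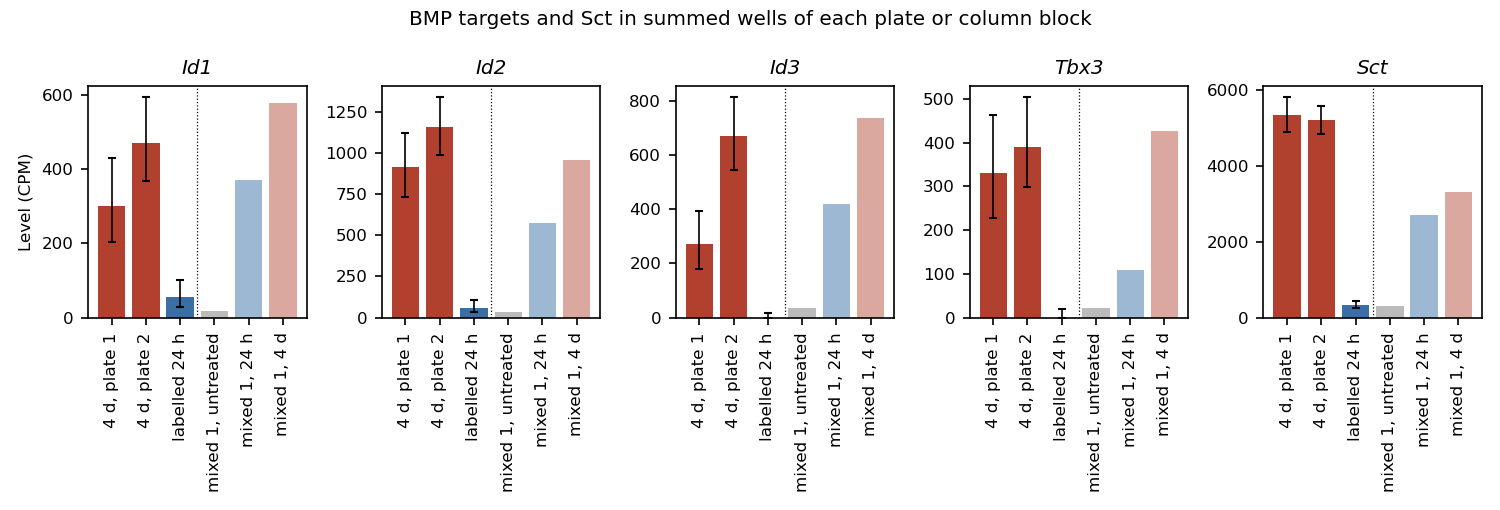
Levels (CPM) of 4 BMP targets and Sct in the summed wells of the 4 d plates, the plate labelled 24 h and, right of the dotted line, the column blocks of mixed plate 1. Bars are single sums and whiskers exact Poisson 95% intervals, drawn for the single-condition plates; the plate labelled 24 h stands near the untreated block, with 61.4 and 36.4 CPM of Id2.

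Single wells gave the same picture at equal depth. After thinning every well to 2000 transcripts, at least 1 transcript of Id1, Id2 or Id3 was found in 22 of 30 wells (73.3%, Wilson 95% interval 55.6 to 85.8%) and 41 of 45 wells (91.1%, 79.3 to 96.5%) at 4 d. On the plate labelled 24 h it was found in 4 of 48 wells (8.33%, 3.29 to 19.6%). On mixed plate 1 it was found in 10 of 68 untreated wells, 34 of 53 wells at 24 h (1 of 54 was too shallow to thin) and 31 of 41 wells at 4 d. The share on the plate labelled 24 h lay below that of the untreated wells (14.7%), with intervals that overlap, and below that of the 24 h wells (64.2%, 50.7 to 75.7%). Before thinning, 1 well of that plate held 17.0 of its 23.0 Id transcripts, all of its Id1 among them. The label and the Id genes of this plate are therefore at odds, and the plate is called by its label throughout. Every direction below is 4 d relative to that plate, and whether its cells had met BMP4 for 24 h was not tested. Without it no 24 h wells remain on the single-condition plates, and the 4 d plates were not set against 24 h wells of the mixed plates.

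The comparison of 4 d with 24 h asks how Tac1 reporter cells go on changing under longer BMP4. These cells were not chosen as enterochromaffin. Tph1, an enterochromaffin gene, was found in 20 of 30 and 39 of 45 thinned wells at 4 d, and 32 of 48 on the plate labelled 24 h. Wells with at least 2% of transcripts from Sst, Gip, Ghrl, Cck, Gcg and Nts numbered 5 and 3 at 4 d. On the plate labelled 24 h they numbered 11, and the part of this mix in the changes was not tested. At 4 d, Id1, Id2, Id3, Tbx3, Sct, Pyy, Cartpt, Nt5e, Klf4 and Sis were among the higher genes, and Tac1, Il17re, Gstt1 and Atf6 among the lower ones. Of 4433 genes tested with edgeR's quasi-likelihood test on the 3 plate sums, 88 were called at a Benjamini-Hochberg adjusted p under 0.05, which is 1.99%. Of these, 60 (1.35% of all tested) were higher and 28 (0.632%) lower. With the spread taken over all Tac1 sums, 122 of 6023 genes were called (2.03%). In the 3-plate test, at an unadjusted p under 0.05, there were 364. The spread comes from the 2 plates at 4 d, and the lone plate labelled 24 h is assumed to vary like them. Both 4 d plates lay beyond the plate labelled 24 h for 58 of the 60 higher genes and all 28 lower genes, and 27 of the higher genes had no transcript on that plate. DESeq2 called 30 genes, 29 of them among the 88. Of the 88 genes, 21 had over 50% of their transcripts in 1 well of the plate where they were highest, so that well is named where it bears on a gene.

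**Figure D2:**
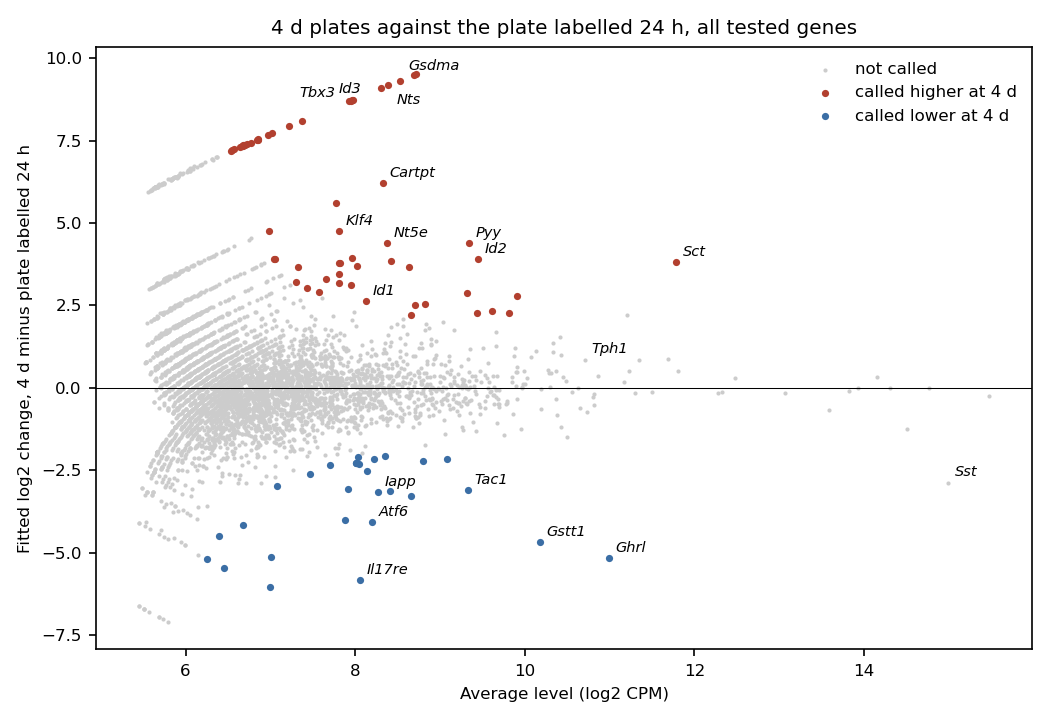
Fitted log2 change, 4 d minus the plate labelled 24 h, against the average level (log2 CPM) of each of 4433 tested genes; red and blue points are the 60 and 28 called genes. The upper diagonal band holds genes with no transcript on the plate labelled 24 h, whose fitted size depends on a prior count.

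Among the BMP targets, 4 of the 6 tested genes were called higher and none lower, against 1.35% higher among all genes, and the median log2 change of the 6 was 3.39, against 0.08 over all tested genes. Id2 was higher by 3.92 ± 0.71 (SE, 2 plates against 1, edgeR adjusted p = 9.54e-06). Id1 was higher by 2.63 ± 0.76 (edgeR adjusted p = 0.0293), a call that was lost under 6 of 14 alternatives. Id3 was at least 30.6-fold higher and Tbx3 at least 23.5-fold higher, taking 3 counts on the plate labelled 24 h as the floor (edgeR adjusted p = 4.39e-08 and 9.59e-07). Id2, Id3 and Tbx3 were called under all 14 alternatives.

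The other tested targets are part of the pathway's own brakes. Smad6, an inhibitory Smad, had 60.1 and 113 CPM at 4 d, against 10.2 CPM on the plate labelled 24 h (2.86 ± 1.63, edgeR adjusted p = 0.736). Skil, a co-repressor of Smads, had 80.1 and 86.2 CPM at 4 d, against 25.6 CPM. Neither passed. Smad7, another inhibitory Smad, was too low to test, with 7 transcripts on each 4 d plate and 0 on the plate labelled 24 h. Smad9, Bambi, Tgif1, Msx1 and Msx2 held at most 9 transcripts on any of the 3 plates, and Hey1, Id4 and Atoh8 were the 3 of 15 with no count here. Of 9 receptor and Smad genes, 4 were tested and 0 were called by edgeR (Bmpr2, Smad4, Smad1 and Bmpr1a, log2 changes of -1.45 to 0.08). Of the 4, 0 reached an unadjusted p under 0.05, and 0 were called with DESeq2.

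Among the hormones, Sct, the gene of secretin, was higher at 4 d in many wells. It had 5338 and 5196 CPM on the 4 d plates, against 338 CPM on the plate labelled 24 h, a mean 15.6 times as high. The sums of the 4 d plates differed little, and neither overlapped the plate labelled 24 h. On the second, 1 well held 174 Sct transcripts when thinned to 2000, against a plate median of 5. The log2 change was 3.82 ± 0.84 (edgeR adjusted p = 0.000823). It missed the threshold under 1 alternative, wells of at least 3000 transcripts (adjusted p = 0.0593). At 2000 transcripts a well, at least 5 Sct transcripts were found in 17 of 30 wells (56.7%, 39.2 to 72.6%) and 25 of 45 wells (55.6%, 41.2 to 69.1%) at 4 d, against 2 of 48 wells (4.17%, 1.15 to 13.98%) on the plate labelled 24 h. On mixed plate 1 the counts were 1 of 68 untreated wells, 12 of 53 wells at 24 h and 24 of 41 wells at 4 d. These treatments lie in columns 1 to 6, 7 to 12 and 13 to 24. Over the same columns of the first 4 d plate, with 2, 7 and 21 kept wells, Sct stood at 5553, 4641 and 5643 CPM. It stood at 1927, 3643 and 7719 CPM on the second, with 7, 16 and 22 kept wells. The well with 174 Sct transcripts lies in the last of these blocks. On the plate labelled 24 h, with 14, 13 and 21 kept wells, Sct stood at 98.3, 302 and 650 CPM. Id1, Id2 and Id3 together stood at 3283, 1145 and 1502, at 1249, 1887 and 3037, and at 73.8, 0 and 251 CPM. In the block at 251 CPM, 1 well held 17.0 of the 23.0 Id transcripts of the plate labelled 24 h. The part of position on the plate was not tested.

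At 4 d, most wells with Id transcripts also held Sct. Among 4 d wells with a transcript of Id1, Id2 or Id3, 16 of 22 and 24 of 41 held at least 5 Sct transcripts, and among 4 d wells with none it was 1 of 8 and 1 of 4. Among the 4 d wells of mixed plate 1, the counts were 23 of 31 and 1 of 10. Wells in which Kcnq1ot1, a nuclear RNA used as a sign of damaged cells, made up at least 2% of transcripts were counted in the same way. They were 3 of 22 and 7 of 41 wells with Id transcripts at 4 d, and 4 of 8 and 1 of 4 wells without. On mixed plate 1 they were 6 of 31 and 8 of 10. Leaving them out, at least 5 Sct transcripts were found in 14 of 19 and 19 of 34 wells with Id transcripts at 4 d, and in 1 of 4 and 1 of 3 wells without. The part of RNA quality in these counts was not tested. The wells of a plate share a library and are not replicates, so the counts are a description. On the plate labelled 24 h, neither of the 2 wells with at least 5 Sct transcripts held an Id transcript at this depth.

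Tac1, the gene behind the reporter, moved the other way. It had 140.2 and 219 CPM at 4 d, against 1428 CPM on the plate labelled 24 h. The log2 change was -3.11 ± 0.55 (edgeR adjusted p = 4.06e-06), and it stayed called under all 14 alternatives. At 2000 transcripts a well, 4 of 30 and 8 of 45 wells held Tac1 at 4 d, against 33 of 48 wells on the plate labelled 24 h. At least 5 Tac1 transcripts were found in 0 of 30 and 1 of 45 wells at 4 d, against 15 of 48 wells. Most reporter-positive cells at 4 d thus held no Tac1 transcript at this depth.

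**Figure D3:**
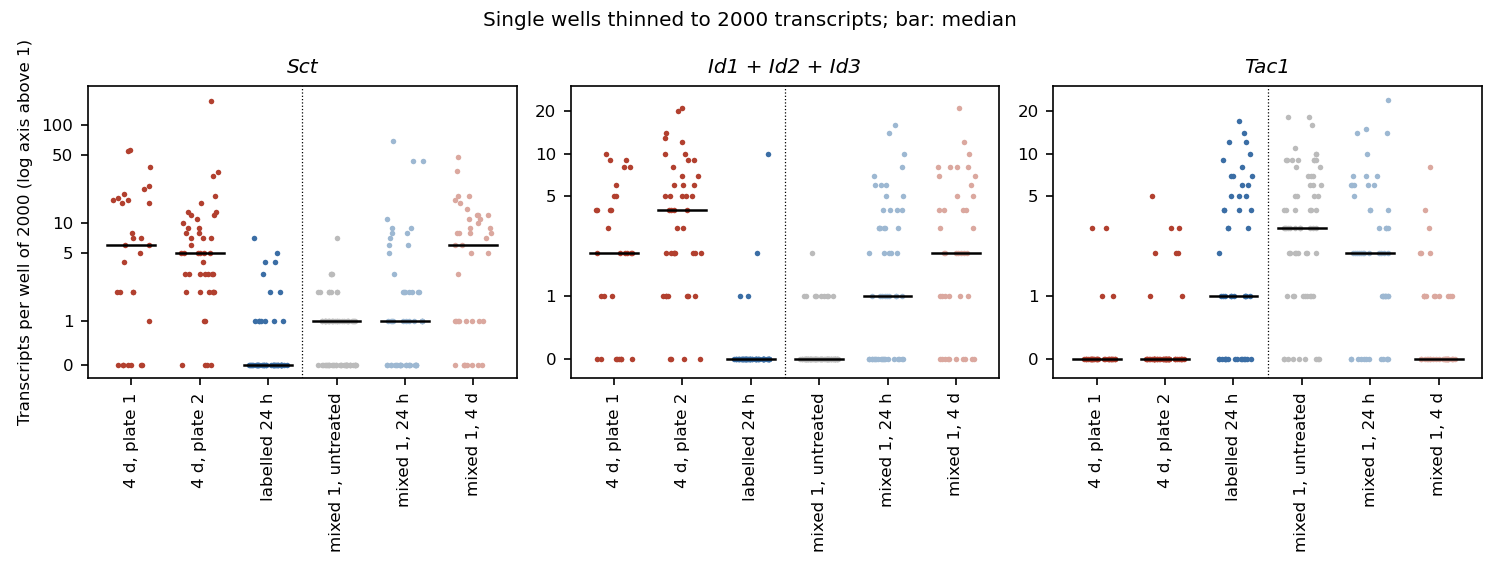
Transcripts of Sct, of Id1, Id2 and Id3 together, and of Tac1 in each well thinned to 2000 transcripts (log axis above 1), on the 4 d plates, the plate labelled 24 h and, right of the dotted line, mixed plate 1. Bars are medians: Sct has medians of 6 and 5 on the 4 d plates and 0 on the plate labelled 24 h, and Tac1 a median of 0 on both 4 d plates and 1 on the plate labelled 24 h.

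Of the 20 hormone genes, 15 were found, 11 were tested, 4 were called higher and 3 lower, against 1.35% higher and 0.632% lower among all genes. The median log2 change over the 11 was -0.66. Beside Sct, the higher ones were Pyy, Cartpt and Nts. Pyy, which encodes peptide YY of L cells, had 741 and 1193 CPM at 4 d, against 40.9 CPM on the plate labelled 24 h (4.40 ± 0.75, edgeR adjusted p = 1.27e-06). It was carried by few wells, 7 and 9 at 4 d, and on the second plate 1 well rich in Sst held 148 of 180 Pyy transcripts. Pyy was not called without wells rich in Sst, Gip, Ghrl, Cck, Gcg and Nts (adjusted p = 0.113). Nts, the neurotensin gene, had 10.02 and 988 CPM at 4 d and none on the plate labelled 24 h. A single well held 142 of its 149 transcripts on the second 4 d plate, so Nts describes that well rather than the plates. Cartpt, which encodes the CART peptides, had 721 and 245 CPM at 4 d, against 5.12 CPM, a single transcript, on the plate labelled 24 h. The ratio of the pooled counts was 84.9 (exact 95% interval 14.9 to 3386), and Cartpt came from 8 and 7 wells at 4 d and stayed called under all 14 alternatives.

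The other lower hormones lay mostly in 1 well. Ghrl, the ghrelin gene, had 110.2 and 212 CPM at 4 d, against 5368 CPM on the plate labelled 24 h (-5.16 ± 0.63, edgeR adjusted p = 1.21e-12). The deepest well of that plate, with 28852 transcripts or 14.8% of the plate, held 966 of 1049 Ghrl transcripts. The same well held 130 of 132 transcripts of Iapp, the amylin gene, and 84.3% of those of Sst, the somatostatin gene. Iapp was called lower (-3.16 ± 0.62, edgeR adjusted p = 7.78e-05), but with each gene's highest well left out it was too low to test. Ghrl stayed called there, and 26 of 48 wells held some. Most held little: thinned to 2000 transcripts, 3 of 48 wells held at least 5 Ghrl transcripts.

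Sst reached 280.4 and 21652 CPM at 4 d, against 72056 CPM on the plate labelled 24 h, and was not called (edgeR adjusted p = 0.357) at a log2 change of -2.87 ± 1.21. Under 4 of 14 alternatives Sst was called lower, one of them without wells rich in other hormones (-3.45 on the log2 scale). It was present in all 48 wells of the plate labelled 24 h, with a median of 28.6 transcripts and a lowest value of 7.01. Thinned to 2000 transcripts, all 162 wells of mixed plate 1 that were deep enough held Sst as well. Other plates of the line did not: Sst was found in 10 of 30 and 40 of 45 wells at 4 d. On mixed plate 2 it was found in 1 of 16 untreated wells, 1 of 9 wells at 24 h and 0 of 15 wells at 4 d. Gip, the incretin of K cells, had 19630 and 1405 CPM at 4 d, against 15204 CPM, and the 4 d plates differed by more than either did from the plate labelled 24 h. Cck, the cholecystokinin gene, had 1292 and 1007 CPM at 4 d, against 727 CPM, and Ucn3, the urocortin gene, had 381 and 484 CPM, against 901 CPM. None of these passed. Gcg, Insl5, Penk and Nmb held 1 to 3 transcripts in all.

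**Figure D4:**
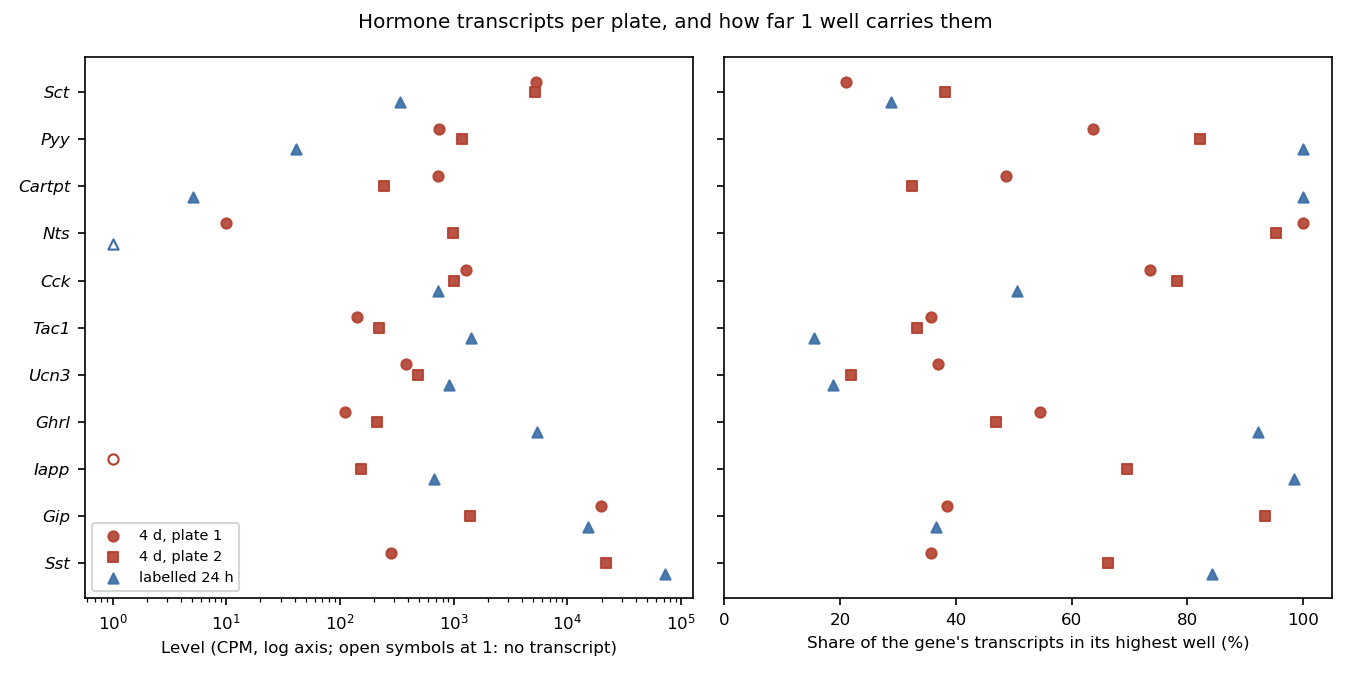
Left, level (CPM, log axis) of 11 tested hormone genes on the 4 d plates and the plate labelled 24 h, with open symbols where no transcript was found. Right, the share of each gene's transcripts on a plate that lies in its highest well; Sct reaches at most 38.1%, while Ghrl and Iapp on the plate labelled 24 h, and Nts on both 4 d plates, lie above 90%.

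The serotonin genes showed 1 call, of the transporter Slc18a1. Of 12 genes, 7 were tested, and the median log2 change was -0.05. Tph1, the rate-limiting enzyme of serotonin synthesis, had 1482 and 2558 CPM at 4 d, against 1013 CPM on the plate labelled 24 h (0.86 ± 0.59, edgeR adjusted p = 0.834). At least 5 Tph1 transcripts were found in 8 of 30 and 21 of 45 thinned wells at 4 d, against 14 of 48 wells. Slc18a1, the vesicle transporter that loads serotonin into granules, had 441 and 656 CPM at 4 d, against 107 CPM on the plate labelled 24 h. It was called higher by 2.21 ± 0.67 (edgeR adjusted p = 0.0499), and this was lost under 9 of 14 alternatives. Ddc, the next enzyme of the pathway after Tph1, had 761 and 623 CPM at 4 d, against 1489 CPM (-1.24 ± 0.53, edgeR adjusted p = 0.367). Maoa, which degrades serotonin, and the cofactor genes Gch1, Pts and Qdpr were not called either, at log2 changes between -0.90 and 0.45.

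Among 7 tested sensory channels and receptors, Sstr1, a somatostatin receptor, was called higher. It had 331 and 822 CPM at 4 d, against 40.9 CPM on the plate labelled 24 h (3.66 ± 0.76, edgeR adjusted p = 0.000248), and was found in 18 of 30 and 31 of 45 wells at 4 d and 6 of 48 wells on the plate labelled 24 h. Trpa1, an irritant-sensing channel of enterochromaffin cells, had 310.5 and 384 CPM at 4 d, against 829 CPM, and did not pass (-1.39 ± 0.54, edgeR adjusted p = 0.263). Of 21 tested secretory granule genes only Rab3c, a vesicle GTPase, was called, at 150.2 and 72.9 CPM against 491 CPM (-2.30 ± 0.64, edgeR adjusted p = 0.0210). The list's median was -0.11. Pcsk1n, an inhibitor of prohormone convertase, was at 841 and 1306 CPM at 4 d, against 302 CPM, and missed the threshold (1.69 ± 0.60, edgeR adjusted p = 0.153).

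Of 20 tested enteroendocrine transcription factors, 2 were called, Foxa1 higher and Isl1 lower. The median log2 change was -1.18 and 14 of the 20 lay below 0, against 2060 of 4433 genes in all. Foxa1, a forkhead factor, had 230.4 and 411 CPM at 4 d, against 20.5 CPM on the plate labelled 24 h (3.79 ± 0.90, edgeR adjusted p = 0.00276). Isl1, a homeobox factor of several hormone lineages, had 60.1 and 152 CPM at 4 d, against 481 CPM (-2.27 ± 0.64, edgeR adjusted p = 0.0229). The deepest well of the plate labelled 24 h held 59.7% of its Isl1, and the call was lost under 9 of 14 alternatives. Nkx2-2, Fev and Rfx6, which specify enterochromaffin and other enteroendocrine cells, had log2 changes of -1.88, -1.28 and -1.53 and did not pass.

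Of 3 tested villus tip genes, 2 were called higher at 4 d, against 1.35% of all genes. Nt5e, the ectonucleotidase CD73 of the villus tip, had 361 and 609.7 CPM at 4 d, against 20.5 CPM on the plate labelled 24 h (4.38 ± 0.85, edgeR adjusted p = 5.90e-05). Klf4, a factor of differentiated epithelium, had 340.5 and 311 CPM at 4 d, against 10.2 CPM from 2 transcripts, a pooled ratio of 31.6 (8.46 to 265). Both were called under all 14 alternatives, and Egfr, the other tested gene of this list of 5, was not called (0.36 ± 0.91).

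Of 12 tested enterocyte genes, 4 were called higher and none lower, against 1.35% higher among all genes. Their median log2 change was 2.62, against 0.08 over all genes. Sis, sucrase-isomaltase of the brush border, had 771 and 1968 CPM at 4 d, against 179 CPM on the plate labelled 24 h (2.79 ± 0.64, edgeR adjusted p = 0.00182), and was spread over 23 of 30 and 38 of 45 wells at 4 d and 8 of 48 wells on that plate. Apoa1, an apolipoprotein, had 521 and 729 CPM at 4 d and none on the plate labelled 24 h, at least 40.7-fold higher. Apoa4 and Alpi, a further apolipoprotein and the intestinal phosphatase, were at least 14.1-fold and 8.47-fold higher. These 3 leaned on single wells. On the first 4 d plate, 1 well of 4520 transcripts held most of Alpi and Apoa4, with its enterocyte genes summing to 22818 CPM and its enteroendocrine markers to 2436 CPM. On the second, 1 well of 5757 transcripts held most of Apoa1, Cyp3a11 and Cyp2c29, at 39908 CPM of enterocyte genes and 1042 CPM of enteroendocrine markers. With each gene's highest well left out Apoa1 stayed called, Apoa4 was lost and Alpi was too low to test.

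The whole enterocyte list of 14 genes summed to 4971 and 4985 CPM at 4 d, against 2502 CPM on the plate labelled 24 h, where Alpi, Apoa1, Apoa4, Lct and Mttp were at 0. Goblet genes summed to 2991 and 2953 CPM at 4 d, against 1832 CPM, with Clca1 at 0 on all 3 plates. Enteroendocrine markers summed to 37442 and 45606 CPM at 4 d, against 55400 CPM. The part that other cell types take in the changes above was not tested. Stem cell, Paneth and tuft genes were near the floor: they summed to at most 110.1 CPM per list on any plate, and proliferation genes to at most 212 CPM.

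The largest rises beyond the lists were those of Cyp3a11, Gsdma, Cwh43, Serpina1e, Clcn4-2 and Serpina1c, all at 0 on the plate labelled 24 h. Gsdma, a member of the pore-forming gasdermins, had 350.5 and 756 CPM at 4 d, at least 36.0-fold higher, and was spread over 13 of 30 and 27 of 45 wells. Cyp3a11, a cytochrome P450, had 561 and 709 CPM at 4 d, at least 41.4-fold higher. A single well held 90.7% of Cyp3a11 on the second 4 d plate. With its highest well on each plate left out, the bound was 9.99-fold, from 24 and 10 transcripts, and the gene stayed called. The same step left bounds of 21.6-fold for Apoa1 and 30.5-fold for Gsdma. Cwh43, Serpina1e, Clcn4-2 and Serpina1c were at least 24.2-fold, 23.9-fold, 24.0-fold and 15.5-fold higher. For Clcn4-2 it was the plate labelled 24 h that stood apart. Untreated, 24 h and 4 d wells held 197, 220 and 262 CPM of it on mixed plate 1, and 151, 118 and 234 CPM on mixed plate 2. Serpina1c and Serpina1e belong to a family of near-identical alpha-1-antitrypsin genes, whose reads counting may split. Hspb1, a small heat shock protein, had 361 and 358 CPM at 4 d, against 20.5 CPM on the plate labelled 24 h (3.94 ± 0.89, edgeR adjusted p = 0.00120). It was the only one called of 9 tested immediate early and heat shock genes, 8 of which lay above 0.

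Among the largest falls were genes that many wells of the plate labelled 24 h shared. Il17re, a receptor subunit for interleukin 17C, had 20.03 and 6.63 CPM at 4 d, against 670.4 CPM on the plate labelled 24 h, where 29 of 48 wells held it. Its pooled ratio of 0.0178 (exact 95% interval 0.00363 to 0.0533) rests on 3 transcripts at 4 d. Gstt1, a glutathione transferase, had 70.1 and 179 CPM at 4 d, against 2978 CPM in 41 of 48 wells (-4.67 ± 0.57, edgeR adjusted p = 1.21e-12). Atf6, a sensor of unfolded proteins in the endoplasmic reticulum, had 50.1 and 39.8 CPM at 4 d, against 691 CPM (-4.08 ± 0.67, edgeR adjusted p = 7.38e-07). All 3 were called under all 14 alternatives. Atf6 is not in the list of 12 unfolded protein response genes, of which 8 were tested. Of those 8, edgeR called 0, the list's median was -0.20, 0 reached an unadjusted p under 0.05 and 0 were called with DESeq2.

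Dusp2, a phosphatase that switches off MAP kinases, had 20.03 and 0 CPM at 4 d, against 292 CPM on the plate labelled 24 h, and Sox13, an SRY-box factor, had 20.03 and 6.63 CPM, against 215 CPM. Stx17, a syntaxin of autophagosome fusion, Fmo2, a flavin monooxygenase, and Acsl3, a fatty acid CoA ligase, held 0 to 2 transcripts per plate at 4 d, against 37, 31 and 34 on the plate labelled 24 h. The lowest fitted value among the 10 was that of Beta-s, a haemoglobin beta gene of red blood cells, and 1 well held 88.0% of it. Interferon and antigen presentation genes (4 tested), goblet genes (3), nuclear and quality RNAs (5), proliferation genes (2) and the 1 tested stem cell gene gave 0 edgeR calls and 0 DESeq2 calls. At an unadjusted p under 0.05 they gave 1, 1, 1, 0 and 0. Axin2, a feedback target of Wnt signalling and that stem cell gene, had 60.1 and 79.5 CPM at 4 d and none on the plate labelled 24 h (edgeR adjusted p = 0.656).

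The mixed plates hold 24 h and 4 d wells side by side, and share no sample with the 3 single-condition plates. In the fit, the 4 d wells of both mixed plates were set against the 24 h wells of mixed plate 1 alone, since the 9 kept 24 h wells of mixed plate 2 were under the minimum of 10, so the comparison lies partly between plates. It called 135 of 6023 genes (2.24%). Of the 60 genes higher on the single-condition plates, 52 had the same sign on the mixed plates, as had 27 of the 28 lower genes, against 58.2% of all 4433 genes. Both tests called 15 of the higher genes, Gsdma, Cwh43, Klf4, Hspb1, Sis, Apoa1 and Cyp3a11 among them. They also both called 16 of the lower genes, including Tac1, Il17re, Gstt1, Atf6, Dusp2 and Vim. Seen from the other side, 45 of the 47 genes that were lower at 4 d on the mixed plates were also lower on the single-condition plates, with a median log2 change of -2.32 there and -2.50 on the mixed plates. Of the 88 genes that were higher on the mixed plates, 59 were also higher on the single-condition plates, beside the same sign in 58.2% of all genes. Their medians were 0.36 on the single-condition plates and 2.99 on the mixed plates. On the single-condition plates, 23 of the 47 and 16 of the 88 were called in the same direction.

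The 24 h wells of mixed plate 2, which were not in the fit, held 202, 540 and 507 CPM of Id1, Id2 and Id3. Its 4 d wells held 299, 374 and 318 CPM, so Id2 and Id3 were lower at 4 d there and Id1 higher. Sct stood at 1670 and 3394 CPM in these 24 h and 4 d wells. The Id genes and Sct showed no call on the mixed plates. Their log2 changes there, 4 d minus 24 h, were 0.47 ± 0.53 for Id1, 0.42 ± 0.50 for Id2, 0.56 ± 0.54 for Id3 and 0.54 ± 0.55 for Sct, and none passed in edgeR (adjusted p of 0.946 to 0.967). The difference between the 2 changes was tested as an interaction, which called 13 of 6023 genes (0.216%), and 12 with plates as a block. It was 3.47 ± 0.79 for Id2 (edgeR adjusted p = 0.0342) and was called for Id3 (edgeR adjusted p = 0.00202). For Sct it was 3.25 (edgeR adjusted p = 0.0642), for Tbx3 7.28 (0.0717) and for Id1 2.14 (0.478), which did not pass. For Tac1 the interaction was -0.88 ± 0.73 (edgeR adjusted p = 0.870), and the change on the mixed plates was -2.25 ± 0.48 (edgeR adjusted p = 0.00471).

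**Figure D5:**
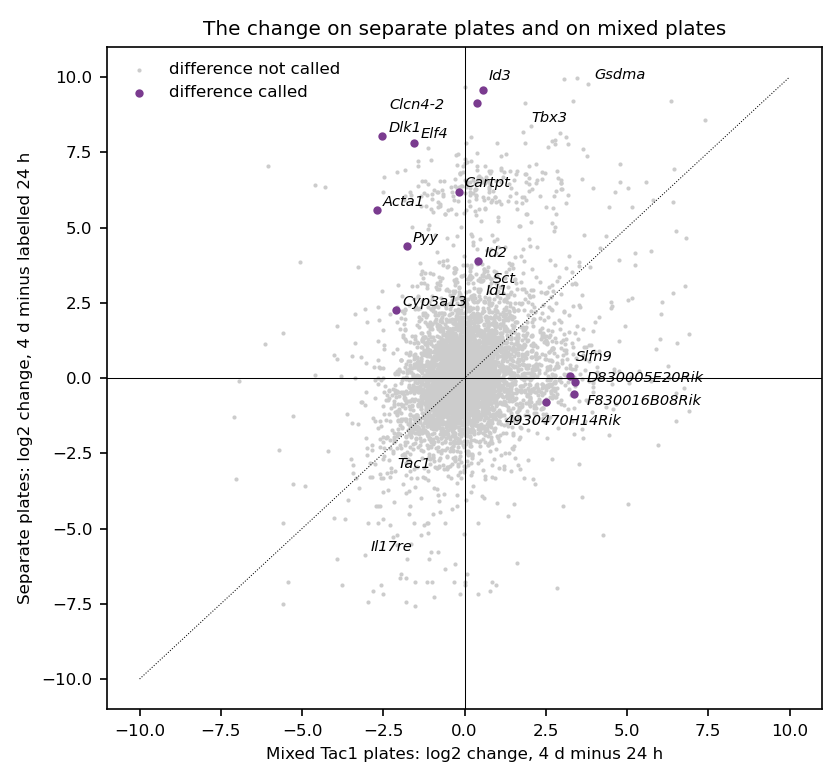
Log2 change of 6023 genes on the single-condition plates, 4 d minus the plate labelled 24 h (vertical), against that on the mixed plates, 4 d wells of both minus 24 h wells of plate 1 (horizontal), both fitted over all Tac1 sums. Purple points are the 13 genes whose changes differed; Id2 and Id3 lie high above the dotted line of equal change, near 0 on the horizontal axis, and Tac1 lies low on both axes.

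The plates were then set beside the matching wells of the mixed plates. At 24 h each side is 1 sum, so the spread there comes from the other Tac1 sums. At 4 d, 20 of 6023 genes were called between the single-condition plates and the mixed 4 d wells (0.332%). Id1, Id2, Id3, Tbx3 and Sct differed by -0.48 to 0.34 on the log2 scale, with SE of 0.41 to 0.46 and edgeR adjusted p of 0.852 to 0.935, and were not among them. Among the called genes, Dusp2, Gstt1 (-2.27 ± 0.50, edgeR adjusted p = 0.0219) and Atf6 (-2.26 ± 0.55, edgeR adjusted p = 0.0479) were lower and Nts, Pyy and Cartpt higher on the single-condition plates. The plate labelled 24 h differed from the 24 h wells of mixed plate 1 in 8 of 6023 genes (0.133%), of which Id2, Id3, Tbx3, Dusp1, Nupr1 and Clcn4-2 were lower and Ghrl and Beta-s higher. Against untreated wells of the mixed plates 16 genes were called (0.266%).

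In this comparison treatment and kind of plate cannot be told apart. Nupr1, a stress-induced chromatin protein, had 10.2 CPM there and 898 and 1446 CPM in untreated wells (-6.63 ± 0.84, edgeR adjusted p = 1.56e-06), with 0 on both 4 d plates and 48.5 and 18.7 CPM in 4 d wells of the mixed plates. Syt7, a vesicle calcium sensor, had 358 CPM there and 89.8 and 0 CPM in untreated wells (2.66 ± 0.58, edgeR adjusted p = 0.0142). It stood at 133 and 422 CPM in 24 h wells of the mixed plates, and at 747 and 570.3 CPM in their 4 d wells. Lrrc58 had 471 CPM there, against 81.3 and 94.5 CPM in untreated wells (2.55 ± 0.52, edgeR adjusted p = 0.00981). It stood at 421 and 557 CPM on the 4 d plates too, against 126.2 and 93.5 CPM in 4 d wells of the mixed plates. Their 24 h wells held 95.9 and 84.3 CPM of Lrrc58, and 282 and 1012 CPM of Nupr1. Of the 16 genes, 13 were higher on the plate labelled 24 h than in untreated wells and 3 lower. Ghrl was also called higher than in untreated wells, with most of it in 1 well.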

How the data were processed

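Per the labels' protocols, sorted cells in 384-well plates with spike-in RNA were processed by SORT-seq and sequenced in 75-base pairs. The submitters' processing notes list BWA 0.6.2-r126 and mm10; no source used here names the counter or says whether strand was used. The deposited values are expected counts (estimated transcripts per gene and well, after the authors' correction for identifiers drawn repeatedly). Whole identifier counts within 0.01 were recovered for 100.0% of nonzero values with 4096 possible identifiers (6 bases), whereas the labels state 4 bases.

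Kept wells were summed per plate, or per treatment block of a mixed plate with at least 10 kept wells, and rounded. Sums were normalised with TMM, filtered with filterByExpr and tested with edgeR 4.0.16 (R 4.3.3), with Benjamini-Hochberg adjustment over all genes tested. The interaction and the comparisons with mixed plates were fitted over all Tac1 sums. A group of 1 sum there takes its spread from the other groups, and the blocks of a mixed plate are treated as independent. In the 3-plate fit 1 residual degree of freedom remains, and the common spread across genes replaced each gene's own. Scripts were tested on simulated counts. Thinning drew identifiers without replacement, 1 fixed draw per well. Doublets were not called, as wells were filled by single-cell sorting. Named genes are the 10 largest rises and falls among called genes whose average log2 CPM reached 6 (predicted, Rik, ribosomal and mitochondrial genes left out), every tested hormone, BMP target and serotonin gene, the 4 genes of smallest p in each other list, and 10 genes of the interaction. Genes outside this rule (Vim, Dusp1, Nupr1, Lrrc58 and Cyp2c29 among them) were named after their values were seen. The members and lists were chosen with earlier results of these data known. Alternatives were other size factors, DESeq2 1.42.0, no filter, other minimum depths, thinning, subsets of wells, recovered identifier counts and leaving out a 4 d plate.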

Additional observations from a re-analysis of the deposited data

Results flagged for a closer look

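The change between 4 d and 24 h differed between the single-condition plates and the mixed Tac1 plates for the 10 genes below, by edgeR's interaction test. Values are the log2 change on the single-condition plates minus that on the mixed plates. They were 6.17 ± 0.96 for Pyy (adjusted p = 0.000269), 8.998 ± 1.65 for Id3 (0.00202), 8.75 ± 1.60 for Clcn4-2 (0.00202), 8.29 ± 1.53 for Acta1 (0.00202), 4.37 ± 0.91 for Cyp3a13 (0.0131) and 6.38 ± 1.33 for Cartpt (0.0131). They were 10.57 ± 2.30 for Dlk1 (0.0220), 9.38 ± 2.08 for Elf4 (0.0265) and 3.47 ± 0.79 for Id2 (0.0342), and -3.91 ± 0.71 for F830016B08Rik (0.00202). Id3, Clcn4-2, Dlk1 and Elf4 had no transcript on the plate labelled 24 h, so the size of their difference depends on a prior count. On the first 4 d plate 1 well held 86.9% of Acta1, and on the second 1 well held 82.2% of Pyy. The 24 h wells of mixed plate 1 summed to 119 Pyy transcripts. Of 53 such wells thinned to 2000 transcripts, 6 held Pyy and 1 held at least 5 transcripts of it. Dlk1 had no transcript on the first 4 d plate, and 1 well held 61.7% of it on the second.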

How the results depend on the processing

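The 88 calls between 4 d and the plate labelled 24 h became 30 with DESeq2, 57 with no low-count filter, 213 with wells of at least 1000 transcripts, 46 with wells of at least 3000, and 57 with each gene's highest well on each plate left out, an alternative chosen after seeing the data. With the spread taken over all Tac1 sums 122 were called, and in that fit leaving out a 4 d plate gave 134 to 163 (163 without the first 4 d plate, whose remaining plates carry the same run code in their file labels, and 134 without the second). The other 6 settings gave 61 to 122. Of all calls 68.2% were higher, against 58.0% with thinned wells, 54.1% with the spread over all Tac1 sums and 67 of 134 without the second 4 d plate. The interaction gave 13 calls, 25 with RLE size factors and 12 with plates as a block. Of 41 named called genes, 18 were called in every alternative that gave a value, and none reversed; Dlk1 had no transcript on either remaining plate without the second 4 d plate. At least 1 Sct transcript was found in 76.7% and 91.1% of wells at 4 d and in 29.2% on the plate labelled 24 h, and at least 5 in 71.4% on the second 4 d plate with wells thinned to 3000. Wells passed a minimum of 1000 transcripts at 28.1% and 30.2% at 4 d and 22.9% on the plate labelled 24 h, and one of 3000 at 3.91%, 5.47% and 7.81%. The causes were not tested. No paired analysis was possible because the groups compared share fewer than 2 replicate numbers. With 1 plate labelled 24 h, no comparison within the single-condition plates is left without it.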
